A study of Homo sapiens with 8 samples.

Results

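The subject here is a set of 355 chromatin regions that held a called H3K4me2 peak in every library. Their called peaks were at least 1.5 times broader in cells given an siRNA against LSD1. H3K4me2, dimethylation of lysine 4 of histone H3, was mapped by ChIP-seq, which sequences the DNA that an antibody to the mark pulls down. The cells were RD, an established line from a human rhabdomyosarcoma, at passages 10 to 15. Cells received Silencer Select siRNA s618 against LSD1 (siLSD1) or a control siRNA (siCtrl). They were harvested 96 hours later, and each siRNA has 2 ChIP libraries that the submitters call biological replicates. All values therefore come from 1 cell line and 1 siRNA against LSD1, and these files hold no measure of LSD1 after the siRNA. No genes were placed on the regions, so the muscle identity of the cells was not checked at its marker genes.

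The members were chosen on the breadth of the deposited peaks. Peaks of the 4 library lists on chromosomes 1 to 22 and X were merged where they overlapped by at least 1 bp, which gave 58952 regions. Of these, 26653 held a peak of each library and are called common. The breadth of a region in a library is the sequence under that library's peaks. A common region was called widened when the lower breadth of the 2 siLSD1 libraries was at least 1.5 times the higher breadth of the 2 siCtrl libraries, and 355 regions (1.33%) met this rule. Breadth, peak number and score of the 4 libraries all stem from the contrast that chose the members. They are given as a description, and no test was made on them.

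LSD1, the product of KDM1A, is a demethylase that acts on the mono- and dimethylated forms of this lysine, often within a complex with the corepressor CoREST. H3K4me2 marks active and poised promoters and enhancers. At promoters it often flanks the more central trimethylated nucleosomes, and broad stretches of lysine 4 methylation are known from genes that define a cell's identity. The question put to the data is where an existing H3K4me2 region reached farther along the chromosome after the siRNA against LSD1.

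Between the nearest values of the 2 groups, widening was under 2 kb in most members. The median breadth was 1477 bp in siCtrl replicate 1 and 1626 bp in siCtrl replicate 2. It was 3224 bp in siLSD1 replicate 1 and 3261 bp in siLSD1 replicate 2. By the rule the groups do not overlap in any member. The ratio of the lower siLSD1 to the higher siCtrl breadth had a median of 1.68, with the middle 50% of members between 1.56 and 1.93. The difference between these values had a median of 1256 bp and ran from 469 to 8653 bp. It was under 1 kb in 122 members (34.4%), at least 2 kb in 83 (23.4%) and at least 4 kb in 12. The ratio reached 2 in 77 members and 3 in 5.

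The members were narrow in control cells. Over all common regions the median breadth was 2125 and 2427 bp in siCtrl replicates 1 and 2, and 2383 and 2525 bp in siLSD1 replicates 1 and 2. By their medians, the widened regions thus ranked below the median common region in both siCtrl libraries and above it in both siLSD1 libraries. The rule favours this order. Regions chosen by the same rule as broader in both replicates 2 had it too. Their medians were 1180 and 1380 bp in replicates 1 of siCtrl and siLSD1, and 2540 and 2572 bp in replicates 2. Summed over the members, peaks covered 605 and 689 kb after siCtrl and 1328 and 1356 kb after siLSD1. The lists themselves differ in length, with 33878 peaks for siCtrl replicate 1 and 44831 for siCtrl replicate 2. There were 50587 and 49611 peaks for siLSD1 replicates 1 and 2, so longer lists and the siRNA against LSD1 go together. Read depth is not given, and a difference in depth between the groups cannot be told apart from one in the mark.

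The region with the largest ratio lay in light-staining band 11q13.1, at chr11:65676187-65680776 (hg19). It had 906 and 1170 bp under peaks in siCtrl replicates 1 and 2 and 4145 and 4162 bp in siLSD1 replicates 1 and 2. The siCtrl mean was 1.04 ± 0.187 kb (SD, n = 2), the siLSD1 mean 4.15 ± 0.0120 kb (SD, n = 2), and the ratio of nearest values 3.54. Peaks of both siLSD1 libraries covered a further 1565 bp before and 775 bp after the peaks of the siCtrl libraries. The pooled lists differed less, with 2619 bp for siCtrl and 4590 bp for siLSD1. One pooled siCtrl peak, from 0.12 to 1.348 kb of the region, lay before the peaks of both siCtrl libraries, so that flank was not free of peaks in control cells.

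In 20q11.21, chr20:31145570-31151051 had 1173 and 1552 bp after siCtrl and 5424 and 5160 bp after siLSD1, a ratio of 3.33. In 7q33, chr7:137617160-137622376 went from 1285 and 1495 bp to 4878 and 4925 bp, with 2913 of the added bases on the side of higher coordinates. Both regions held a single peak in each siCtrl library. In the second, siLSD1 replicates 1 and 2 had 3 and 2 peaks, so that part of the added breadth came as further peaks next to the first.

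The siLSD1 replicates were less alike in 2q31.3. There, chr2:182647149-182652276 had 1098 and 1116 bp after siCtrl, but 3456 bp in siLSD1 replicate 1 and 5128 bp in siLSD1 replicate 2. In 7q11.23, chr7:75020595-75025455 had 1303 and 1457 bp after siCtrl and 4696 and 4385 bp after siLSD1. All 2570 added bases lay on the side of lower coordinates, and its peaks had scores of 62.56 and 57.97 in the siCtrl lists against 537.86 and 440.45 in the siLSD1 lists. The score is the authors' own value for a peak, and these siCtrl peaks were close to the lowest score of 50 in the lists.

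The remaining 3 of the 8 largest ratios were in 17q21.32, 17q23.2 and 7q21.11. At chr17:45794851-45799975 breadth was 1600 and 1653 bp after siCtrl and 4942 and 4693 bp after siLSD1. At chr17:59399676-59404198 it was 1462 and 1202 bp against 4149 and 4431 bp. At chr7:84271469-84273997, in a dark-staining band, it was 816 and 679 bp against 2466 and 2304 bp. The pooled lists differed much less in 7q21.11 (2455 bp for siCtrl and 2529 bp for siLSD1), in 17q23.2 (3833 and 4271 bp) and in the region of 2q31.3 (4276 and 5128 bp). In 17q21.32, 17q23.2 and 7q21.11 every library had a single peak, and the added sequence lay almost wholly on one side. Low siCtrl scores were not confined to 7q11.23. They were 64.81 and 77.9 in 11q13.1, 87.64 and 64.12 in 7q33, and 71.6 and 55.31 in 17q23.2. In 20q11.21 they were 101.49 and 104.44, and in 7q21.11 76.77 and 153.81. In 2q31.3 they were 78.63 and 402.49, and in 17q21.32 285.92 and 397.84.

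**Figure D1:**
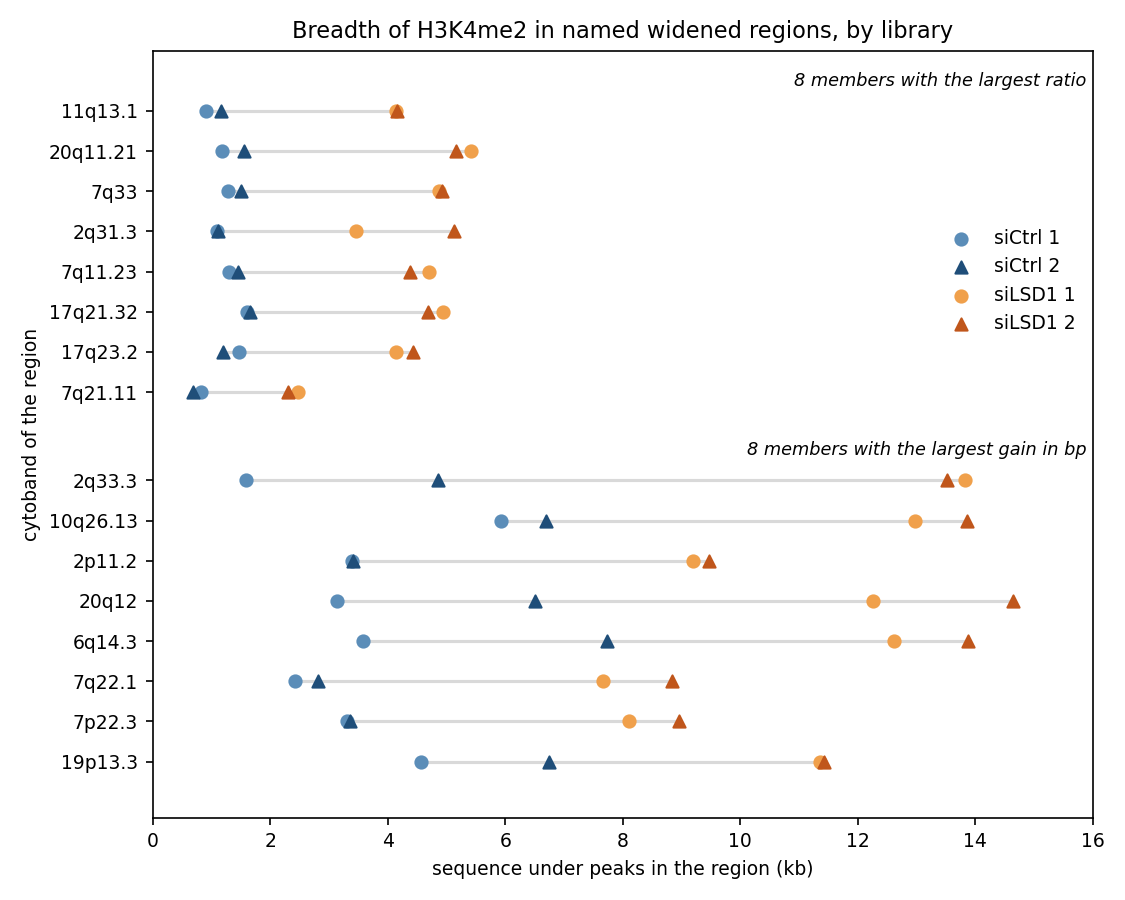
Sequence under peaks (kb, x axis) in the 8 members with the largest ratio and the 8 with the largest gain, named by cytoband (y axis). Each symbol is 1 library, circles for replicate 1 and triangles for replicate 2, and in 11q13.1 both siLSD1 symbols sit near 4.15 kb while the siCtrl symbols sit at 0.906 and 1.17 kb.

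The largest gains in bases came in broader domains. In 2q33.3, chr2:206559665-206573597 had 1586 and 4862 bp under peaks after siCtrl and 13821 and 13515 bp after siLSD1, so that the nearest values differed by 8653 bp. The siCtrl libraries disagreed here, with 1 peak in replicate 1 and 2 in replicate 2. The peak of replicate 1 scored 51.67, close to the lowest score of 50, and the highest of replicate 2 scored 321.69. The pooled siLSD1 list had no peak in this region, although both of its libraries had peaks along nearly its whole length. The ratio was 2.78 with the full lists and 0.658 with equal numbers of peaks per list, where the longer of the 2 peaks of siLSD1 replicate 1 scored too low to be kept.

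In 10q26.13, chr10:123939863-123954749 had 5925 and 6702 bp after siCtrl and 12971 and 13858 bp after siLSD1. In 20q12, chr20:39673832-39688647 had 3137 and 6509 bp after siCtrl and 12258 and 14637 bp after siLSD1. In 6q14.3, chr6:86157258-86172466 had 3586 and 7733 bp and then 12610 and 13875 bp. The pooled lists showed no such difference in 10q26.13, with 14051 bp for siCtrl and 14390 bp for siLSD1. The siCtrl replicates stood far apart in the regions of 20q12 and 6q14.3, where replicate 2 was the broader, and the siLSD1 values lay above both.

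Filling of a gap between peaks was seen in 2p11.2. At chr2:85631789-85641854 both siCtrl libraries had 2 peaks at the ends of the region, with 3397 and 3403 bp covered. Both siLSD1 libraries had 3 peaks, with 9189 and 9475 bp covered, and all 5057 added bases lay between the siCtrl peaks. With equal numbers of peaks the ratio of this region was 1.458, below the threshold, against 2.70 with the full lists. In 7q22.1, chr7:99838338-99847176 had 2429 and 2808 bp after siCtrl and 7657 and 8839 bp after siLSD1. The pooled siLSD1 list again had no peak there.

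Some members had very strong peaks in all libraries. In 7p22.3, chr7:2555123-2564313 ranked at the 98.1 and 97.7 percentile of score in the lists of siCtrl replicates 1 and 2, and at 97.6 and 98.1 in siLSD1 replicates 1 and 2. Its breadth was nonetheless 3304 and 3357 bp after siCtrl against 8111 and 8966 bp after siLSD1. The region of 19p13.3, chr19:842712-854380, ranked high in score only after siLSD1. It stood at the 48.8 and 57.7 percentile in siCtrl replicates 1 and 2 and at 97.5 and 86.6 in siLSD1 replicates 1 and 2. Breadth there was 4560 and 6743 bp after siCtrl and 11353 and 11420 bp after siLSD1.

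**Figure D2:**
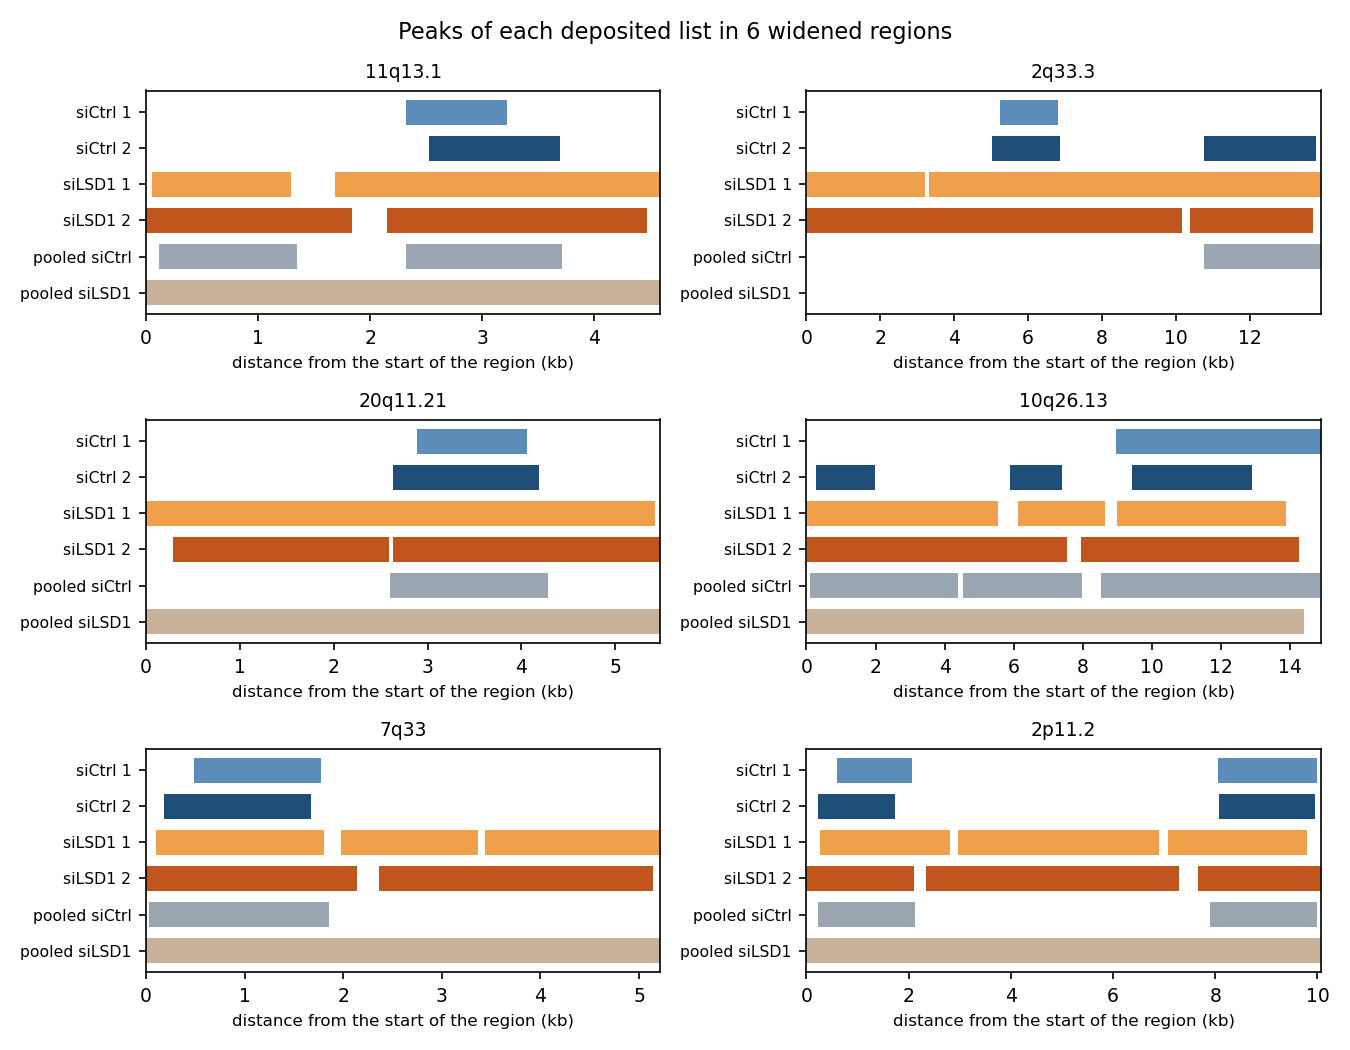
Peaks of the 4 library lists and the 2 pooled lists as bars along the region (x axis, kb from its start) in the 3 members with the largest ratio (left) and the 3 with the largest gain (right). In 2p11.2 the siCtrl bars sit at both ends and the siLSD1 bars cover most of the space between them, 5057 bp of it in both libraries, and in 2q33.3 the row of the pooled siLSD1 list is empty.

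The members that were already broad in control cells were few. The 6 broadest, by the lower of their siCtrl values, included the regions of 10q26.13 and 19p13.3 described above. In 17q21.33, chr17:48127465-48140816 had 5469 and 6417 bp after siCtrl, in 2 peaks per library, and 11012 and 13352 bp after siLSD1, in 1 peak per library. A second member began 0.047 kb beyond it. In 9q34.3, chr9:140115308-140123769 had 4896 and 4829 bp after siCtrl and 8202 and 8175 bp after siLSD1. This was among the highest-scoring regions, at the 98.9 percentile or above in every list.

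The other 2 of these broad members lay on the short arm of chromosome 8. In 8p23.1, chr8:12290871-12299027 had 4843 and 4838 bp after siCtrl and 8134 and 8017 bp after siLSD1. In 8p21.3, chr8:22021167-22028456 had 4631 and 4719 bp and then 7115 and 7084 bp, a ratio of 1.501 that is close to the limit. In both regions the replicates of each siRNA lay much closer to each other than to those of the other siRNA. With scaled breadth the ratios of the broad regions in 8p23.1, 9q34.3 and 8p21.3 were 1.393, 1.405 and 1.287, below the threshold.

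The 3 members just inside the threshold had ratios from 1.5 to 1.501 and lay in 1p36.12, 2p11.2 and 10q26.13. The first of these, chr1:21916241-21917759, had 932 and 972 bp after siCtrl and 1506 and 1458 bp after siLSD1. The 3 just outside it, in 1p13.3, 11q23.3 and 12q13.13, had ratios of 1.498, 1.497 and 1.497. In the first of those, chr1:109132240-109135676, the siCtrl values were 716 and 1663 bp and the siLSD1 values 2491 and 3272 bp.

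The added sequence lay mostly at the outer edges of the control peaks. Bases under peaks of both siLSD1 libraries and of neither siCtrl library were counted as added, and they came to 509.8 kb over the members with a median of 1153 bp. Of these bases, 91.1% lay outside the span of the siCtrl peaks. In 238 members (67.0%, exact 95% interval 61.9 to 71.9%) at least 80% of the added bases were on one flank. This was the flank of lower coordinates in 127 and of higher coordinates in 111. In 88 members (24.8%, 20.4 to 29.6%) each flank held at least 20%, in 10 the addition was inside the span, and 19 were mixed. Regions chosen in other directions had much the same shape, with 92.8% of added bases outside and 65.6% on one flank for those broader in siCtrl, and 85.7% and 62.5% for those broader in replicates 2. The direction along the chromosome could not be set against the direction of transcription, since genes were not placed.

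Few bases of the control peaks were lost, which the rule favours. In 185 members every base under a siCtrl peak was also under peaks of both siLSD1 libraries. In 342 no base was under peaks of both siCtrl libraries and of neither siLSD1 library. The like was true of 58 of the 61 regions broader in siCtrl and 273 of the 277 broader in replicates 2. The siLSD1 replicates shared a median of 87.2% of their joint covered length within a member, and the siCtrl replicates 79.6%.

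Most members had a single peak in every library, but this was less frequent than among all common regions. In 212 members (59.7%) each of the 4 libraries had 1 peak, against 76.3% of all common regions. The share was 58.1% for regions broader in replicates 2 and 68.85% for those broader in siCtrl. Both siLSD1 libraries had more peaks than either siCtrl library in 27 members (7.61%), against 2.03% of all common regions, and fewer in 2. One peak was found in 345 and 331 members in siCtrl replicates 1 and 2, and in 256 and 282 members in siLSD1 replicates 1 and 2.

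Peak scores also ranked higher after siLSD1. The highest score in a member had a median percentile of 30.4 and 45.1 in the lists of siCtrl replicates 1 and 2. For siLSD1 replicates 1 and 2 it was 65.9 and 64.3. Over all common regions these medians were 58.6, 69.7, 72.0 and 72.3 in the same order. In 243 members (68.5%) both siLSD1 percentiles exceeded both siCtrl percentiles, and in 7 both were lower. The corresponding shares of all common regions were 31.3% and 8.31%. Score and breadth are taken from the same peaks, so this is not separate evidence of widening.

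The same rule was applied in the opposite direction and to the 2 other ways of pairing the libraries. Regions broader in siCtrl by the rule numbered 61 (0.229%). Those broader in both replicates 2 than in both replicates 1 numbered 277 (1.04%), and those broader in replicates 1 numbered 8 (0.03%). For the last split, 40 regions (0.15%) were broader in siCtrl replicate 2 and siLSD1 replicate 1 than in the other 2 libraries, and 7 (0.0263%) were narrower. The count after siLSD1 was the highest of the 6, and the split by replicate number came next, with 277 against 355. Over both directions, 416 regions passed by siRNA and 285 by replicate number.

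The order of these counts depended on how the lists were treated. With the 33878 top-scoring peaks of each list, 22787 regions were common. Of these, 250 (1.097%) were widened after siLSD1, 81 (0.3555%) were broader in siCtrl, and 286 (1.255%) were broader in replicates 2. The count for replicates 2 was then the highest in 1 direction, while over both directions 331 regions passed by siRNA and 293 by replicate number. With each library's breadth divided by its median over common regions, the 3 counts were 246, 100 and 166. At a ratio of 2, 77 regions were widened after siLSD1, 4 were broader in siCtrl and 42 were broader in replicates 2. The lists of equal length still held a widened region at 203 of the 355 members (57.2%), and 238 (67.0%) still passed with scaled breadth. In the upper 50% of each list by score a widened region was found at 55 members (15.5%). Only members that still held a common region could pass, and these were 270 in the lists of equal length and 84 in the upper 50%. Of the 14439 common regions of the upper 50%, 190 passed by siRNA and 269 by replicate number over both directions.

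Each library was also left out. Without siCtrl replicate 1 there were 1021 widened regions, and without siCtrl replicate 2 there were 2379. Without siLSD1 replicate 1 there were 847, and without siLSD1 replicate 2 there were 593. The opposite count in that order was 303, 146, 263 and 431. With 1 library standing for its group the rule is looser by construction, so the counts can only be set against each other within a setting. In all 4 settings the widened count was above the opposite one.

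**Figure D3:**
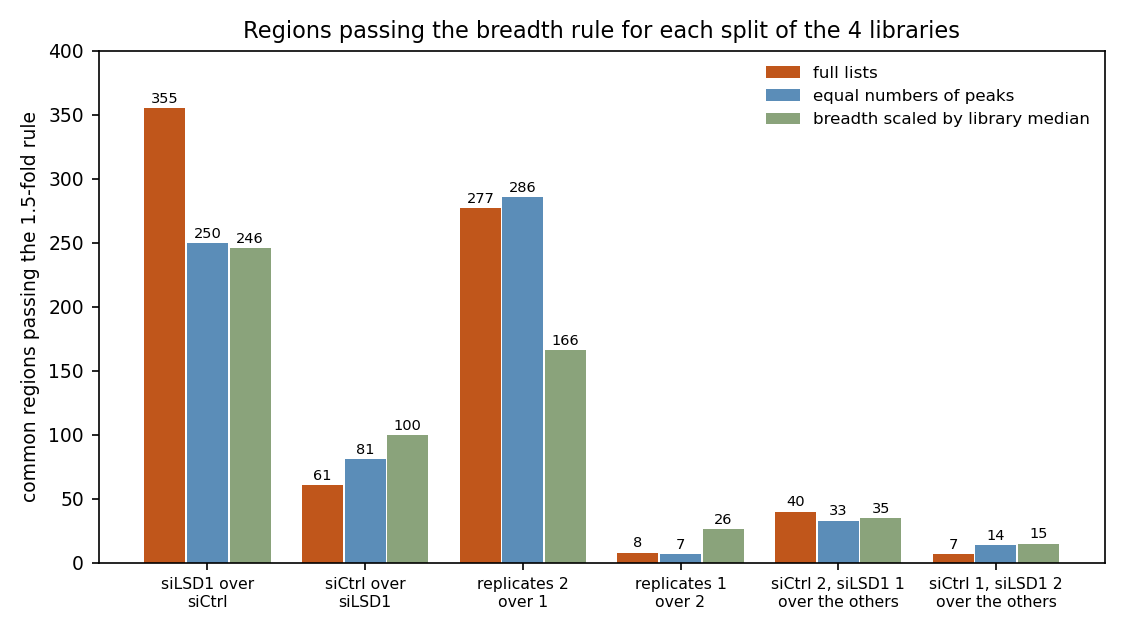
Number of common regions (y axis) that pass the 1.5-fold rule in each direction of the 3 ways to split the 4 libraries into pairs (x axis), with full lists, equal numbers of peaks, or breadth scaled by the library's median. With full lists the siLSD1 bar stands at 355 and the bar of replicates 2 over 1 at 277, and with equal numbers these are 250 and 286.

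The 2 largest counts were also set out by breadth in the narrower pair, with class limits taken from the siCtrl breadth. Among regions whose higher siCtrl breadth was at most 1747 bp, 198 of 6666 (2.97%, exact 95% interval 2.58 to 3.41%) were widened after siLSD1. For the split by replicate number, 197 of 6574 (2.997%, 2.60 to 3.44%) were broader in replicates 2, with the breadth taken in replicates 1. Narrow regions therefore passed as often by replicate number as by siRNA. Above 3442 bp, 30 of 6662 regions (0.4503%, 0.304 to 0.642%) were widened after siLSD1 and 9 of 6491 (0.139%, 0.0634 to 0.263%) were broader in replicates 2. The opposite direction gave 6 of 7473 (0.0803%, 0.0295 to 0.175%).

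In the upper 50% of breadth, above 2475 bp, 79 of 13320 regions (0.593%) were widened after siLSD1. By the same limit 26 of 13277 (0.196%) were broader in replicates 2 and 13 of 14511 (0.0896%) were broader in siCtrl. In the same order, the counts were 68 (0.528%), 37 (0.292%) and 22 (0.159%) with equal numbers of peaks. With scaled breadth they were 54 (0.405%), 10 (0.0753%) and 22 (0.152%). Both settings were chosen for this class after the data were seen. The siLSD1 count and share were the highest of the 3 in each setting. The breadth that sets the class is also part of the rule, so these counts are a description and no separate evidence of widening. The intervals treat regions as independent and cover counting error only.

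**Figure D4:**
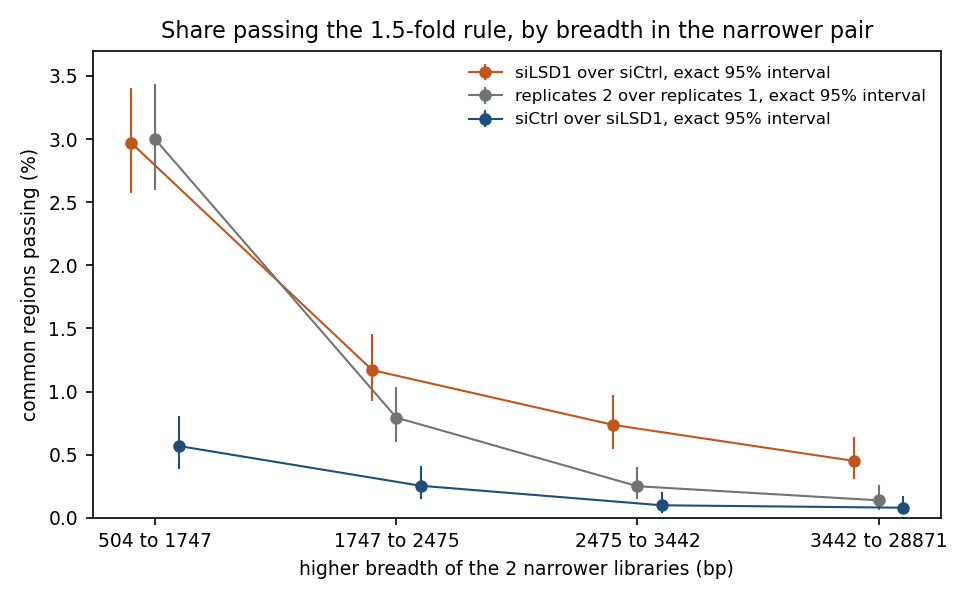
Share of common regions that pass the rule (%, y axis) by the higher breadth of the 2 narrower libraries, in 4 classes set by the siCtrl breadth (x axis, bp), with exact 95% binomial intervals. The siLSD1 and replicate curves meet at 2.97% and 2.997% in the narrowest class, and in the broadest they stand at 0.4503% and 0.139%.

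Pairs of libraries that had no part in choosing a region gave a further reading. Regions at least 1.5 times broader in siLSD1 replicate 1 than in siCtrl replicate 1 numbered 3043. In siLSD1 replicate 2 against siCtrl replicate 2, 536 of them (17.6%, exact 95% interval 16.3 to 19.02%) also passed, against 4.13% of all common regions. Their median ratio in that second pair was 1.13, against 1.025 over all common regions. Chosen in the second pair, 1102 regions passed, and 48.6% of them (45.7 to 51.6%) passed in the first, against 11.4% of all.

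Crossed pairs gave 848 regions chosen in siLSD1 replicate 1 against siCtrl replicate 2. Of these, 55.0% (51.5 to 58.3%) passed in siLSD1 replicate 2 against siCtrl replicate 1, where 15.4% of all common regions did. In reverse, 11.3% of 4110 regions (10.4 to 12.4%) passed, against 3.18% of all. Choosing in either pair of a kind rests on the same regions that passed in both, so these are 2 readings and not 4. In both the share was above the background. That background is all common regions and was not matched for breadth, although narrow regions passed more often. Both siLSD1 lists are also longer than both siCtrl lists, in every pair read here. The part of either in these shares was not tested.

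The opposite direction was read in the same way. Of 529 regions broader in siCtrl replicate 1 than in siLSD1 replicate 1, 17.2% (14.1 to 20.7%) passed in the pair of replicates 2, against 2.2% of all. The other 3 readings were 15.5% of 586 regions against 1.98%, 7.27% of 1251 against 1.46%, and 23.5% of 388 against 4.69%. The fold over the background was higher for regions broader in siCtrl than for those broader in siLSD1. It was 7.82 against 4.26 in the pairs by replicate number and 5 against 3.56 in the crossed pairs. A high background limits this fold, and the backgrounds of the 2 directions were unequal. The folds therefore do not rank the directions by how well regions repeated.

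In the authors' pooled lists most members were also broader after siLSD1. The pooled siLSD1 peaks covered at least 1.5 times the pooled siCtrl breadth in 211 members (59.4%, 54.1 to 64.6%), against 2.22% of all common regions. Where both pooled lists had a peak, in 349 members, the median ratio was 1.59. A further 134 members were broader by less than 1.5 times. The pooled lists are built from the same libraries and do not replicate the result.

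A few members had no peak in a pooled list although all 4 libraries had one. The pooled siLSD1 list lacked a peak in 3 members, those of 2q33.3 and 7q22.1 named above and one in 8q24.21 at chr8:129160905-129166802. The pooled siCtrl list lacked a peak in 4 members, in 8q24.13, 8q24.21, 9q34.3 and 22q11.23. In the member of 8q24.21, breadth was 2229 and 2249 bp after siCtrl and 5689 and 5898 bp after siLSD1, and neither pooled list had a peak. Among all common regions the pooled siLSD1 list lacked a peak in 45 (0.169%) and the pooled siCtrl list in 32 (0.120%).

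The members were found on 20 chromosomes. Chromosome 2 held 44 of 2246 common regions (1.96%, exact 95% interval 1.43 to 2.62%) and chromosome 7 held 34 of 1570 (2.17%, 1.504 to 3.01%). Chromosome 8 held 23 of 1133 (2.03%, 1.29 to 3.03%), chromosome 19 held 28 of 1526 (1.84%, 1.22 to 2.64%) and chromosome 20 held 15 of 757 (1.98%, 1.11 to 3.25%). Chromosome 6 was low, with 8 of 1490 (0.537%, 0.232 to 1.06%). The intervals of most chromosomes included the overall share of 1.33%. Those of chromosomes 2 and 7 lay above it, and those of chromosomes 6, 13, 21 and X below it. With equal numbers of peaks the overall share was 1.097%, and chromosomes 2 and 7, at 1.31% and 1.67%, had intervals that included it, while chromosome 19, with 28 of 1400 regions, had one that lay above it (1.333 to 2.878%). With scaled breadth the overall share was 0.923%. The interval of chromosome 7 (1.465%, 0.9309 to 2.19%) then lay just above it and that of chromosome 2 (1.336%, 0.903 to 1.901%) included it. These settings by chromosome were chosen after the data were seen.

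Chromosomes 13, 21 and X held no member. Chromosome X had 0 of 555 common regions, which allows a share of up to 0.541%, and its count stayed at 0 with equal numbers of peaks and with scaled breadth. Chromosome 13 had 0 of 390, which allows up to 0.769%, and also stayed at 0 in both settings. Chromosome 21 had 0 of 278, which allows up to 1.08%, and had 1 of 223 with equal numbers. These limits rest on 3 counts, and the 2-sided exact intervals drawn in the plot by chromosome end higher, at 0.6625%, 0.9414% and 1.318% for chromosomes X, 13 and 21.

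Chromosomes 13 and X also stood out in the split by replicate number, and chromosome 21 did not. On chromosome X, 45 regions (8.11%) were broader in both replicates 2, and on chromosome 13 there were 22 (5.64%), while chromosome 21 had 2 (0.719%), against 1.04% over all common regions. On chromosomes 2, 7 and 19 these shares were 0.401%, 0.382% and 0.197%. The median ratio of the lower siLSD1 to the higher siCtrl breadth was 0.783 on chromosome X, against 0.938 over all common regions. The sources used here do not say what else differs between replicates 1 and 2, and its part in these shares was not tested.

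**Figure D5:**
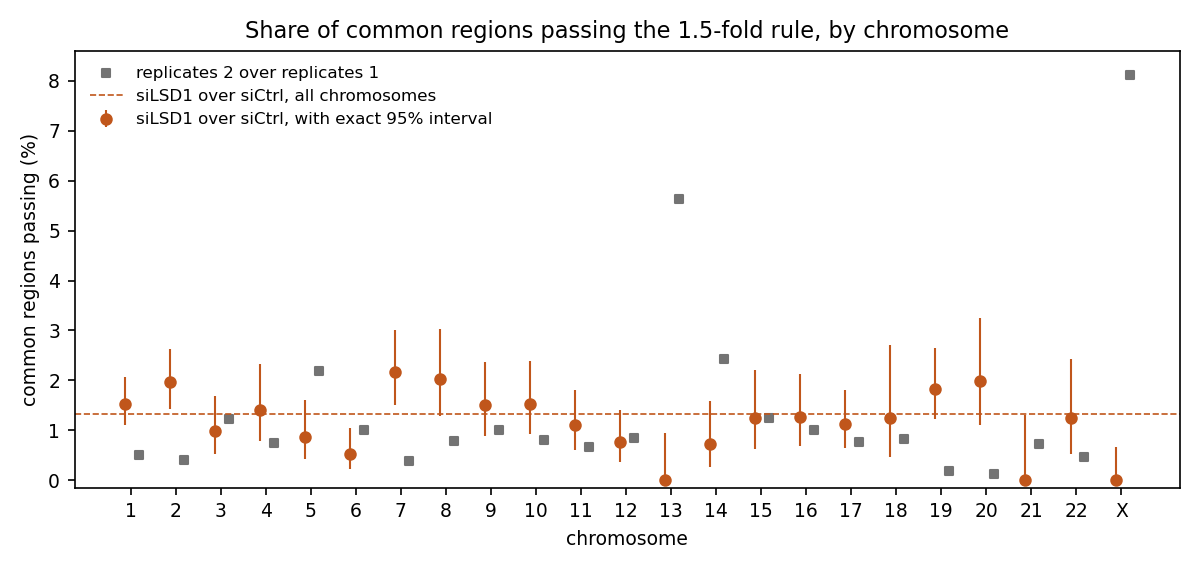
Share of common regions (%, y axis) on each chromosome (x axis) widened after siLSD1, with exact 95% binomial intervals, and broader in replicates 2 than in replicates 1 (squares). No member lay on chromosomes 13, 21 and X, where the squares of chromosomes 13 and X stand at 5.64% and 8.11%.

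The members were spread over 224 of the 791 cytobands that held a common region. In 150 bands there was 1 member, and 12 bands held at least 4, or 63 members together. Band 19p13.3 held the most, 13 of 289 common regions (4.50%, 2.42 to 7.57%), with 0 broader in siCtrl and 0 broader in replicates 2. Its widened regions included chr19:4225914-4231603, with 1694 and 1805 bp after siCtrl and 4789 and 5061 bp after siLSD1, and chr19:3717857-3723424, with 1696 and 2144 bp and then 5131 and 5568 bp.

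Next came 7q11.23 with 6 of 119 (5.04%) and 19p13.11 with 6 of 140 (4.29%). In 19p13.11, chr19:18767102-18772897 had 1807 and 2256 bp after siCtrl and 5359 and 5796 bp after siLSD1. Bands 2p21 and 8p23.1 held 5 each, of 105 (4.76%) and 90 (5.56%). The 5 members of 8p23.1 were the broad region named above, chr8:8725820-8731649 and 3 regions between 10509169 and 10658768 on the same chromosome. Their siCtrl breadths ran from 1045 to 4843 bp and their siLSD1 breadths from 2079 to 8134 bp.

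Bands with 4 members were 1q32.1, 7p14.3, 9q34.3, 10q26.13, 16p13.3, 20q13.13 and 20q13.33. Their shares of common regions ran from 1.76% in 16p13.3 to 7.02% in 10q26.13. Of these 12 bands, 16p13.3 also held regions that passed in another direction, with 1 broader in siCtrl and 2 broader in replicates 2. The bands were singled out by their number of members, so their shares are a description.

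Pairs of members in close reach of each other were found at 13 places, with at most 50 kb between them. They held 26 members (7.32%). No like share for common regions or the other splits is given, so the pairs are a description and do not show clustering. In 17q21.33 and 19q13.32 the gap was 0.047 and 0.093 kb, so that neighbouring members nearly touched. In 2q37.2, chr2:235871878-235880701 and chr2:235886330-235896728 lay 5.63 kb apart. The first went from 3954 and 4190 bp after siCtrl to 6936 and 8770 bp after siLSD1, and the second from 4382 and 5054 bp to 10399 and 9503 bp. In 11q13.1, chr11:65662859-65671591, with 3294 and 4295 bp and then 7815 and 8540 bp, lay 4.60 kb from the member of largest ratio. Further pairs were in 2q35, 7q36.1, 9q34.3, 10p14, 15q22.33, 17q23.2, 19p13.11 and, with 2 pairs, 19p13.3.

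Some genes of these bands are given here as background only. Band 17q21.33 carries ITGA3, the alpha subunit of a laminin-binding integrin, and 2q33.3 carries NRP2, a receptor for semaphorins and vascular growth factors. Band 6q14.3 carries NT5E, the cell-surface enzyme CD73, and 2p11.2 carries CAPG, which caps actin filaments. Band 7p22.3 carries LFNG, a glycosyltransferase that modifies Notch receptors, and 11q13.1 carries FOSL1, a subunit of the transcription factor AP-1. Band 15q22.33 carries SMAD3, which transmits TGF-beta signals, and 10p14 carries GATA3, a lineage transcription factor. Each band holds many other genes, and whether a member lies in or near any of them was not analysed here.

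Marked neighbours were close to the members. The nearest other merged region lay at a median of 3276 bp from a member, against 6405 bp for all common regions. Another region was within 5 kb of 222 members (62.5%, 57.3 to 67.6%), against 44.1% of all common regions. For regions broader in replicates 2 this was 42.6% (36.7 to 48.7%), and for those broader in siCtrl it was 42.6% (30.0 to 55.9%). The nearest common region lay at a median of 9282 bp from a member, 15942 bp for all common regions and 28119 bp for regions broader in replicates 2. These distances run from edge to edge, and a broader region is by itself nearer to its neighbours.

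The share in light-staining bands was near that of all common regions. Light-staining bands, which are rich in genes, held 227 members (63.9%, 58.7 to 68.9%) and 60.4% of all common regions. The darkest bands held 26 members (7.32%, 4.84 to 10.6%) and 6.21% of all. Regions broader in replicates 2 were less often in light bands, with 136 of 277 (49.1%, 43.1 to 55.2%). Within 5 Mb of a chromosome end lay 42 members (11.8%, 8.66 to 15.7%) and 12.8% of all common regions.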

How the data were processed

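H3K4me2 ChIP-seq libraries of RD cells, 2 for each siRNA, were analysed, and the 4 input libraries were not used here. Per the submitters' processing notes, reads were aligned with Bowtie to hg19. The peaks are named after MACS in the deposited lists. The sources used here do not give its version, its settings or the use of the inputs. The deposited lists give each peak's start, end and a score, the authors' own value, with a minimum of 50. The lists carry no read depth. Chromosome Y and unplaced contigs were left out.

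Members and lists were chosen with earlier results of these data known. Named regions are the 8 with the largest ratio, the 8 with the largest gain and the 6 broadest after siCtrl, bands with at least 4 members, and those next to the threshold. Others, in the paragraphs on pooled lists, bands and pairs, were chosen after their values were seen, as were the genes named for bands. Shares carry exact (Clopper-Pearson) 95% intervals. Limits for a count of 0 use 3 counts. Cytobands of hg19 came with circlize 0.4.16. Python 3.11.15, pandas 2.3.3, scipy 1.17.1 and matplotlib 3.10.9 were used. On simulated lists of 3000 regions the rule found 200 of 200 widened regions. All of these were made to exceed the threshold, so this checked the code and not how well the rule finds widening in real libraries. The reference tables used a later build, so no genes were placed and the gene lists prepared for this work were not used.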

Additional observations from a re-analysis of the deposited data

How the results depend on the processing

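The siLSD1 count of 355 exceeded the opposite count of 61 under all settings run. With the threshold lowered to 5 to 4 the widened count was 1203, the opposite 259, the replicate split (both directions) 1010 and the remaining split 230. At a ratio of 2 they were 77, 4, 43 and 4, and with group means 1217, 240, 1158 and 365. With equal numbers 250 of 22787 common regions (1.097%) were widened, and in the upper 50% of each list by score 134 of 14439 (0.928%). Over both directions the siRNA split exceeded the replicate split under the settings run for both, apart from the upper 50% (190 against 269). Scaled breadth gave 100 opposite regions. The remaining split, 47 with full lists, had 75 with gaps up to 1000 bp joined and 30 with at least 1000 bp in each siCtrl library. With a replicate block, as a ratio of 1.5 within each replicate number, 536 regions were widened and 91 went the other way. Crossed pairs, added after seeing the data, gave 466 and 91. Leaving out 1 library gave 593 to 2379 widened and 146 to 431 opposite.

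The share of widened regions in light bands was 70.9% in the upper 50% of each list. The share also 1.5 times broader in the pooled lists was 31.3% at 5 to 4, 70.1% at 2, 48.4% with equal numbers, 26.9% in the upper 50%, 68.1% with gaps joined, 65.5% with scaled breadth and 37.7% with group means. Of the 23 named regions, 21 kept a ratio of at least 1.5 with equal numbers, where 2q33.3 had 0.658 and 2p11.2 had 1.458, and 17 kept it with scaled breadth. Causes were not tested. With 2 libraries per group and no read depth, the error of a single region's breadth was estimated poorly and the effect of depth on it was not tested.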
